A study of Homo sapiens with 16 samples.

Results

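The genes described here encode the centromere, the kinetochore and the spindle checkpoint. They were a list of 41 gene symbols, and a gene was measured where at least 1 probe set was annotated with its symbol alone. This held for 40 of the 41, out of 19775 genes with a value in all. CENPP, a centromere protein, was annotated only on a probe set that also carried another gene, so it has no value here. Where a gene had several such probe sets, the brightest over the 16 arrays stood for it. By role, the 40 genes were 12 of the constitutive centromere, 16 of the outer kinetochore, 6 of the checkpoint, 4 of the chromosomal passenger complex and 2 shugoshins.

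The centromere is the stretch of each chromosome where the kinetochore is built in mitosis. CENP-A, a variant of histone H3, marks it, and a network of CENP proteins binds CENP-A nucleosomes through the whole cell cycle. In mitosis this network carries the outer kinetochore, whose NDC80 complex grips spindle microtubules. Kinetochores with no microtubule recruit the checkpoint proteins, which hold back the anaphase promoting complex until all chromosomes are attached. Aurora B, in the passenger complex, releases faulty attachments, and the shugoshins protect the cohesion of sister chromatids. In cultured cells many of these genes are transcribed mainly in G2 and mitosis.

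The series asked how blocking glucose metabolism alters gene expression in human mammary cell lines. MDA-MB-231 is an established breast cancer line and MCF10A an immortalized mammary epithelial line that does not form tumours. The 4 groups were MDA-MB-231 with 2DG, MDA-MB-231 with vehicle, MCF10A with 2DG and MCF10A with vehicle, each with 4 replicates lettered A to D. 2DG, or 2-deoxy-glucose, is a glucose analogue that cells phosphorylate but cannot carry through glycolysis. It was given at 50 mM for 24 h, and the vehicle was water. All cells grew in medium with 17.5 mM glucose. The medium of MDA-MB-231 held 10% fetal bovine serum and 2 mM glutamine. That of MCF10A held 5% horse serum, 1 mM glutamine, insulin, EGF, cholera toxin and hydrocortisone, so line and medium cannot be told apart. Each line is a single cell line and no further lines were measured.

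The authors deposited log2 values made with RMA, an array method that corrects background, equalizes the distributions of the arrays and averages the probes of a set. A difference of 1 is therefore a factor of 2, and small signals are compressed. The deposited values ran from 2.38 to 15.15, with array medians between 6.17 and 6.22. The basal and epithelial marker CDH1 averaged 4.62 in MDA-MB-231 and 13.06 in MCF10A on vehicle, and KRT14 averaged 4.91 in MDA-MB-231 and 13.63 in MCF10A. The mesenchymal factor ZEB1 averaged 11.29 in MDA-MB-231 and 7.75 in MCF10A, while SPARC and CDH2, also mesenchymal, had differences of -5.37 and -4.47 (MDA-MB-231 minus MCF10A). PTPRC, a leukocyte marker, averaged between 3.75 and 4.17 in every group, and CD3E, a T cell marker, between 6.27 and 6.47. PECAM1, an endothelial marker, averaged 8.22 with 2DG and 7.28 with vehicle in MDA-MB-231, a rise of 0.93, and 7.08 with 2DG and 6.96 with vehicle in MCF10A, which was not called. The part of PECAM1 in the results was not tested. The difference between the 3' and 5' actin control probe sets, which is used as a sign of RNA degradation, was 0.97 to 1.13 with 2DG and 0.38 to 1.09 with vehicle in MDA-MB-231. In MCF10A it was 0.50 to 0.65 with 2DG and 0.34 to 0.49 with vehicle. It therefore moved with 2DG in both lines, and its part in the results was not tested beyond a fit with it as a covariate. One MDA-MB-231 vehicle array, replicate B, stood apart at 1.09.

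Almost every kinetochore, centromere and checkpoint gene had lower RNA after 2DG, in both lines. In MDA-MB-231, 38 of the 40 fell and 2 rose, where 25.4% of all genes fell and 25.5% rose. In MCF10A, 39 fell and 1 rose, where 25.2% of all genes fell and 29.0% rose. A gene was counted as changed at a limma adjusted p under 0.05 over all genes. A fall of at least 1 on the log2 scale was measured for 29 of the 40 in MDA-MB-231 (4.74% of all genes) and for 35 in MCF10A (5.81% of all genes). The median change was -1.25 in MDA-MB-231 (range -2.39 to 0.73) and -2.88 in MCF10A (range -5.64 to 0.34), beside medians over all genes of 0.03 in MDA-MB-231 and 0.02 in MCF10A. For all 40 genes the 4 arrays with 2DG did not overlap the 4 with vehicle, in either line, as was also the case for 46.9% of all genes in MDA-MB-231 and 51.6% in MCF10A. Without the MDA-MB-231 vehicle array that stood apart, 38 genes fell and 2 rose in that line, with a median change of -1.23. In bulk RNA, fewer cells in a cell cycle phase and less RNA per cell cannot be told apart.

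Many of the falls in MCF10A were among the largest of all 19775 genes, and fewer of those in MDA-MB-231 were. In MDA-MB-231 the fall of CENPN ranked 2631 and that of BUB3 4600. The 100 genes with the largest falls held 4 of the 40 in MDA-MB-231 and 19 in MCF10A, and the 500 largest held 17 in MDA-MB-231 and 32 in MCF10A. The response of the set was alike from array to array: measured against the mean of the vehicle arrays, the median change of the 40 genes was -1.27, -1.26, -1.25 and -1.22 on the MDA-MB-231 2DG arrays A to D. On the MCF10A 2DG arrays it was -2.86, -2.78, -2.83 and -3.02. The plot of the change of each gene by role shows both lines side by side.

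**Figure D1:**
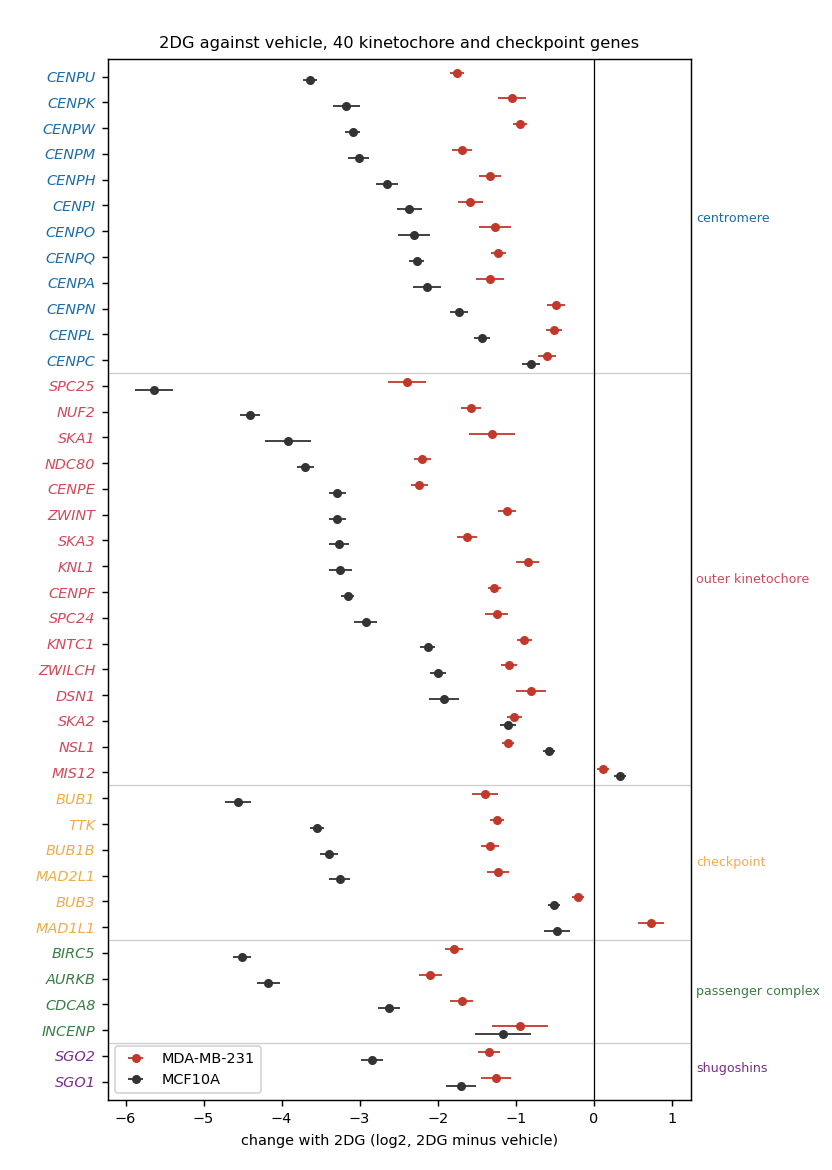
Change with 2DG (log2, 2DG minus vehicle, x axis) for the 40 genes (y axis), grouped by role and ordered within a role by the change in MCF10A. Points are limma estimates from 4 arrays a group in MDA-MB-231 (red, upper) and MCF10A (dark, lower), and bars are 95% confidence intervals; most points lie left of 0, between -5.64 and 0.73, and those of MCF10A lie further left for 38 genes, all but NSL1 and MIS12.

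In the constitutive centromere all 12 measured genes fell in both lines, with a median change of -1.25 in MDA-MB-231 and -2.34 in MCF10A. The largest fall in each line was that of CENPU, which helps dock the kinase PLK1 at the centromere. It read 11.56, 11.52, 11.45 and 11.51 on the MDA-MB-231 2DG arrays, against 13.26, 13.31, 13.31 and 13.17 on vehicle. In MCF10A it read 7.95, 7.91, 7.84 and 7.82 with 2DG, against 11.51, 11.53, 11.51 and 11.54 with vehicle. The 2DG values lay far below the vehicle values on every array. The change was -1.75 in MDA-MB-231 (SE 0.041, limma adjusted p = 7.89e-15) and -3.64 in MCF10A (SE 0.041, adjusted p = 7.87e-19).

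The changes nearest 0 in the centromere were those of CENPN and CENPC. CENPN, which reads the CENP-A nucleosome, had 11.72, 11.71, 11.63 and 11.83 with 2DG in MDA-MB-231, against 12.16, 12.12, 12.28 and 12.26 with vehicle. In MCF10A its values were 9.02, 9.13, 9.17 and 8.98 with 2DG, against 10.81, 10.77, 10.79 and 10.85 with vehicle. Its fall was thus small in MDA-MB-231 (-0.48, SE 0.0532) and clear of the replicate spread in both lines. CENPC, the scaffold that links CENP-A to the outer kinetochore, was 7.73, 7.68, 7.90 and 7.77 with 2DG in MDA-MB-231, against 8.35, 8.33, 8.37 and 8.41 with vehicle. In MCF10A it was 7.42, 7.37, 7.48 and 7.37 with 2DG, against 8.33, 8.13, 8.25 and 8.14 with vehicle. Both lines moved down by less than 1, by -0.59 in MDA-MB-231 and -0.80 in MCF10A (SE 0.0531 each).

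The other centromere genes fell by intermediate amounts. CENPA itself changed by -1.32 in MDA-MB-231 and -2.14 in MCF10A. Of the CENP-H, I, K and M group, which joins the inner to the outer kinetochore, the changes in MDA-MB-231 were -1.33 for CENPH, -1.58 for CENPI, -1.05 for CENPK and -1.69 for CENPM. In MCF10A they were -2.65 for CENPH, -2.36 for CENPI, -3.17 for CENPK and -3.01 for CENPM, so the order of the 4 genes differed between the lines. CENPO, which forms a complex with CENPU, changed by -1.27 in MDA-MB-231 and -2.31 in MCF10A, and CENPQ of the same complex by -1.22 in MDA-MB-231 and -2.27 in MCF10A. CENPL, the partner of CENPN, changed by -0.51 in MDA-MB-231 and -1.44 in MCF10A. CENPW, a histone-fold protein, changed by -0.95 in MDA-MB-231 and -3.09 in MCF10A.

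In the outer kinetochore 15 of 16 genes fell and 1 rose in both lines, with a median change of -1.18 in MDA-MB-231 and -3.20 in MCF10A. The NDC80 complex, the microtubule-binding rod, held the largest fall of all 40 genes, that of SPC25. Its values were 7.87, 7.81, 7.84 and 7.95 with 2DG in MDA-MB-231, against 10.21, 10.35, 10.21 and 10.26 with vehicle. In MCF10A they were 4.68, 4.12, 3.94 and 4.06 with 2DG, against 9.84, 9.77, 9.93 and 9.82 with vehicle. SPC25 was higher in MDA-MB-231 by 0.42 on vehicle and by 3.67 under 2DG. The change was -2.39 in MDA-MB-231 (SE 0.112, limma adjusted p = 1.72e-11), rank 18 among all falls, and -5.64 in MCF10A (SE 0.112, adjusted p = 3.04e-16), rank 3. The MCF10A 2DG mean of 4.2 was above only 17.7% of the probe sets on those arrays, in the range that RMA compresses.

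NUF2, the partner of NDC80 in the head of the complex, had 10.16, 10.13, 10.07 and 10.03 with 2DG in MDA-MB-231, against 11.60, 11.71, 11.63 and 11.75 with vehicle. In MCF10A it had 6.25, 5.94, 6.07 and 6.07 with 2DG, against 10.44, 10.48, 10.56 and 10.46 with vehicle. That is a change of -1.57 in MDA-MB-231 (SE 0.0579) and of -4.40 in MCF10A, a fall of 21.1-fold. NDC80 changed by -2.19 in MDA-MB-231 and -3.70 in MCF10A, and SPC24, the partner of SPC25, by -1.24 in MDA-MB-231 and -2.92 in MCF10A. All 4 subunits of the complex therefore fell by over 1 in both lines on the brightest probe set. Another SPC24 probe set gave 0.13 in MDA-MB-231 and -0.0775 in MCF10A, neither of them called.

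The MIS12 complex, which anchors NDC80 to the centromere, did not move as one. MIS12 was 10.98, 11.02, 11.08 and 11.00 with 2DG in MDA-MB-231, against 10.87, 10.93, 10.88 and 10.93 with vehicle. In MCF10A it was 10.80, 10.79, 10.82 and 10.74 with 2DG, against 10.47, 10.47, 10.42 and 10.45 with vehicle. It was higher with 2DG in both lines, by 0.12 in MDA-MB-231 (SE 0.0335, limma adjusted p = 0.00723) and by 0.34 in MCF10A (adjusted p = 1.79e-07). With the actin ratio added to the fit, the MDA-MB-231 value for MIS12 was 0.11 and no longer passed the threshold. NSL1 had 9.89, 9.88, 9.82 and 9.76 with 2DG in MDA-MB-231, against 10.97, 10.92, 10.94 and 10.90 with vehicle. In MCF10A its values were 10.97, 10.98, 11.05 and 10.97 with 2DG, against 11.57, 11.56, 11.59 and 11.56 with vehicle. NSL1 fell more in MDA-MB-231 (-1.09, SE 0.0358) than in MCF10A (-0.58) on its brightest probe set, while no difference was called on its other 3. DSN1, another subunit, changed by -0.81 in MDA-MB-231 and -1.92 in MCF10A.

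KNL1, the scaffold that recruits the checkpoint, changed by -0.85 in MDA-MB-231 and -3.25 in MCF10A, and its partner ZWINT by -1.11 in MDA-MB-231 and -3.29 in MCF10A. ZWILCH and KNTC1 are subunits of the RZZ complex, which brings dynein and MAD1 to kinetochores. ZWILCH changed by -1.09 in MDA-MB-231 and -2.0 in MCF10A, and KNTC1 by -0.89 in MDA-MB-231 and -2.13 in MCF10A. CENPE, a kinetochore motor, changed by -2.23 in MDA-MB-231 and -3.29 in MCF10A, and CENPF, a large protein of the fibrous corona, by -1.27 in MDA-MB-231 and -3.15 in MCF10A. The SKA complex tracks microtubule ends, and its subunits differed. SKA1 changed by -1.31 in MDA-MB-231 and -3.92 in MCF10A, and SKA3 by -1.62 in MDA-MB-231 and -3.26 in MCF10A. SKA2 was 11.27, 11.29, 11.32 and 11.32 with 2DG in MDA-MB-231, against 12.24, 12.45, 12.32 and 12.26 with vehicle. In MCF10A SKA2 was 10.15, 10.12, 10.27 and 10.18 with 2DG, against 11.30, 11.26, 11.31 and 11.25 with vehicle. The fall of SKA2 was near 1 in each line (-1.02 in MDA-MB-231 and -1.10 in MCF10A, SE 0.0459 each).

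Of the 6 checkpoint genes, 5 fell and 1 rose in MDA-MB-231, with a median change of -1.23, and all 6 fell in MCF10A, with a median of -3.33. BUB1, the kinase that builds the checkpoint platform on KNL1, had 9.93, 10.05, 10.04 and 10.01 with 2DG in MDA-MB-231, against 11.43, 11.43, 11.36 and 11.40 with vehicle. In MCF10A it had 5.85, 6.11, 6.37 and 6.08 with 2DG, against 10.64, 10.67, 10.72 and 10.61 with vehicle. Its change was -1.40 in MDA-MB-231 (SE 0.0759, limma adjusted p = 1.06e-10) and -4.56 in MCF10A (adjusted p = 4.02e-17). Dimmer BUB1 probe sets at -0.235 and -0.2475 in MDA-MB-231 and at -0.18 in MCF10A were not called. BUB1B, the BubR1 protein of the mitotic checkpoint complex, changed by -1.33 in MDA-MB-231 and -3.40 in MCF10A. MAD2L1, whose protein MAD2 binds CDC20 in that complex, changed by -1.23 in MDA-MB-231 and -3.26 in MCF10A. TTK, the kinase MPS1 that starts the signal, changed by -1.24 in MDA-MB-231 and -3.54 in MCF10A.

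MAD1L1 and BUB3 stood apart from the other checkpoint genes. MAD1L1, which holds MAD2 at the kinetochore, was 10.08, 10.13, 10.10 and 10.30 with 2DG in MDA-MB-231, against 9.33, 9.66, 9.36 and 9.33 with vehicle. In MCF10A it was 7.19, 7.12, 7.12 and 7.23 with 2DG, against 7.73, 7.61, 7.72 and 7.47 with vehicle. It rose by 0.73 in MDA-MB-231 (SE 0.0772, limma adjusted p = 4.06e-07) and fell by 0.47 in MCF10A (adjusted p = 5.79e-05), with no overlap of the arrays in either line. Without the MDA-MB-231 vehicle array B the rise of MAD1L1 was 0.81. BUB3, which carries BUB1 and BubR1 to the kinetochore, was 13.49, 13.45, 13.46 and 13.38 with 2DG in MDA-MB-231, against 13.63, 13.70, 13.59 and 13.66 with vehicle. In MCF10A BUB3 was 12.47, 12.48, 12.47 and 12.48 with 2DG, against 13.01, 12.96, 12.98 and 12.98 with vehicle. Those changes, of -0.20 in MDA-MB-231 and -0.51 in MCF10A (SE 0.0337 each), held for the brightest of its 6 probe sets and not for all of them, as described with the probe sets.

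All 4 genes of the passenger complex fell in both lines, with a median change of -1.74 in MDA-MB-231 and -3.40 in MCF10A. AURKB, which encodes the kinase Aurora B, read 8.97, 8.97, 8.95 and 9.0 with 2DG in MDA-MB-231, against 11.06, 11.03, 11.07 and 11.10 with vehicle. In MCF10A AURKB read 5.46, 5.68, 5.92 and 5.57 with 2DG, against 9.84, 9.81, 9.83 and 9.83 with vehicle. That is -2.09 in MDA-MB-231 (SE 0.068, limma adjusted p = 2.37e-13) and -4.17 in MCF10A (adjusted p = 3.13e-17). BIRC5, or survivin, which brings the complex to chromatin, read 9.98, 10.03, 10.06 and 10.07 with 2DG in MDA-MB-231, against 11.79, 11.90, 11.80 and 11.80 with vehicle. In MCF10A BIRC5 read 7.04, 6.94, 7.25 and 7.11 with 2DG, against 11.59, 11.57, 11.62 and 11.59 with vehicle. On vehicle BIRC5 was higher in MDA-MB-231 by 0.23, and its change with 2DG was -1.79 in MDA-MB-231 and -4.51 in MCF10A (SE 0.053 each).

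CDCA8, which encodes borealin, changed by -1.70 in MDA-MB-231 and -2.62 in MCF10A. INCENP, the scaffold of the complex, was 7.40, 7.42, 7.39 and 7.52 with 2DG in MDA-MB-231, against 8.63, 7.82, 8.6 and 8.45 with vehicle. In MCF10A it was 6.59, 6.51, 7.09 and 6.54 with 2DG, against 8.06, 8.0, 7.69 and 7.62 with vehicle. INCENP had the largest standard error of the 40 genes, and its changes of -0.94 in MDA-MB-231 and -1.16 in MCF10A had an SE of 0.165 each. With the actin ratio added to the fit, INCENP changed by -0.43 in MDA-MB-231 and by -0.97 in MCF10A.

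Both shugoshins fell in both lines. SGO2 was 9.86, 9.77, 9.75 and 9.81 with 2DG in MDA-MB-231, against 11.19, 11.06, 11.16 and 11.15 with vehicle. In MCF10A SGO2 was 7.46, 7.72, 7.51 and 7.32 with 2DG, against 10.42, 10.28, 10.38 and 10.30 with vehicle. It changed by -1.34 in MDA-MB-231 and -2.84 in MCF10A (SE 0.066 each). SGO1, the shugoshin that guards mitotic cohesion, was 6.92, 6.91, 6.94 and 6.93 with 2DG in MDA-MB-231, against 7.96, 8.25, 8.19 and 8.30 with vehicle. In MCF10A SGO1 was 5.46, 5.70, 5.88 and 5.51 with 2DG, against 7.38, 7.29, 7.49 and 7.21 with vehicle, a change of -1.25 in MDA-MB-231 and -1.71 in MCF10A (SE 0.0893 each). The plot of values by array sets these 16 genes beside one another.

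**Figure D2:**
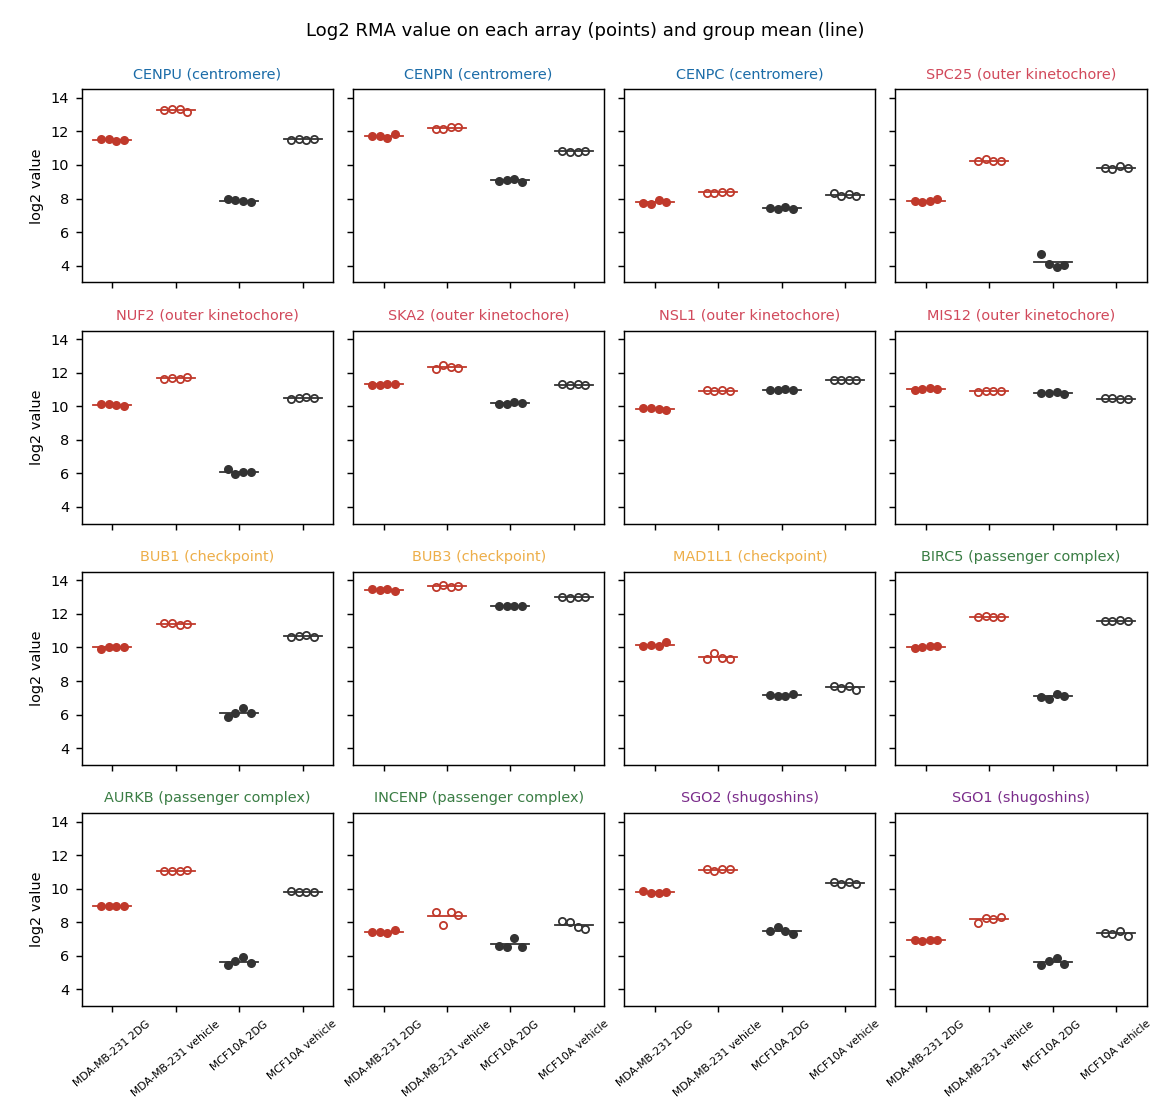
Log2 value (y axis) of 16 genes on each array, with 2DG (filled points) and vehicle (open points) in MDA-MB-231 (red) and MCF10A (dark); lines are the means of 4 arrays. SPC25, NUF2, BUB1, AURKB and BIRC5 drop furthest in MCF10A, MIS12 lies between 10.42 and 11.08 on every array, and MAD1L1 moves up in MDA-MB-231 and down in MCF10A.

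The size of the response differed between the lines for most of the genes. The test was the difference of the 2DG changes, MDA-MB-231 minus MCF10A, so a positive value means a weaker fall in MDA-MB-231 where both fell. It was positive and called for 36 of the 40, where 22.3% of all genes were, and negative and called for 2, where 23.6% were. The median difference was 1.32, beside 0.005 over all genes, and by role it was 1.15 for the centromere, 1.57 for the outer kinetochore, 2.05 for the checkpoint, 1.5 for the passenger complex and 0.98 for the shugoshins. The 3 largest differences were those of SPC25 (3.25, SE 0.159, limma adjusted p = 6.7e-11), BUB1 (3.16, SE 0.107, adjusted p = 1.15e-12) and NUF2 (2.83, SE 0.0819, adjusted p = 1.84e-13). SPC25 and NUF2 have 1 probe set each. The BUB1 value is that of the brightest of 5: the next gave 1.95, which was called, and the 3 dimmest gave 0.04, -0.07 and 0.03, which were not. The mean of all BUB1 probe sets gave 1.02. The SPC25 value is a lower estimate in so far as its MCF10A 2DG arrays lie in the compressed range.

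The 2 negative differences were both in the MIS12 complex, with NSL1 at -0.52 (adjusted p = 2.56e-07) and MIS12 at -0.22 (adjusted p = 0.00108). The NSL1 call rests on the brightest of its 4 probe sets: the others gave -0.14, 0.23 and -0.12, none of them called, and the mean of all 4 gave -0.14, not called. No difference was called for SKA2, at 0.08 (95% confidence interval -0.06 to 0.22, adjusted p = 0.349), or for INCENP, at 0.22 (interval -0.29 to 0.73, adjusted p = 0.509). With the actin ratio added to the fit, the INCENP difference was 0.54 and was called. These intervals leave room for differences of those sizes and do not show equal responses. CENPC had the smallest positive difference that was called, 0.21 (adjusted p = 0.033), and lost the call when any of 7 single arrays was left out. The difference of MAD1L1, at 1.2 (SE 0.109, adjusted p = 1.10e-07), joined a rise in MDA-MB-231 to a fall in MCF10A. Across the 40 genes the changes in the lines had a Pearson correlation of 0.774 and a Spearman correlation of 0.747, a description over genes measured on the same arrays. The median ratio of the change in MDA-MB-231 to that in MCF10A was 0.424.

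**Figure D3:**
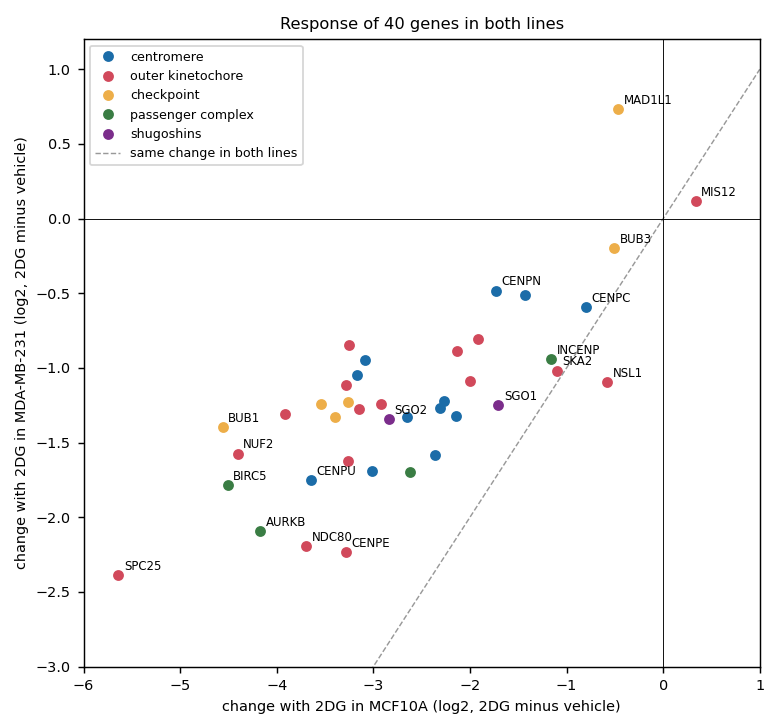
Change with 2DG in MDA-MB-231 (y axis, log2) against that in MCF10A (x axis, log2) for the 40 genes, coloured by role; the dashed line marks the same change in both lines. Of the 40 points, 38 lie above the dashed line, and NSL1 and MIS12 lie below it.

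The lines already differed on vehicle, and more so under 2DG. On vehicle 32 of the 40 genes were higher in MDA-MB-231 and 3 lower, where 29.2% of all genes were higher and 26.8% lower, with a median difference of 0.55. Under 2DG 39 were higher in MDA-MB-231 and 1 lower, where 30.7% of all genes were higher and 28.8% lower, with a median of 2.25. The difference on vehicle and that under 2DG differ by the difference of response tested above. The arrays of the lines did not overlap for all 40 genes under 2DG, where this held for 56.3% of all genes, and for 33 of the 40 on vehicle, where it held for 52.7%.

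On vehicle the largest differences were those of MAD1L1 (1.79), CENPU (1.74), CDCA8 (1.67) and NDC80 (1.60). CENPH (-0.92), NSL1 (-0.64) and MAD2L1 (-0.31) were the 3 genes lower in MDA-MB-231. No difference on vehicle was called for CENPA (0.17), CENPI (0.15), KNL1 (0.12), ZWILCH (0.04) or SKA1 (0.10) on the brightest probe set. For 3 of these the call depended on the setting: CENPI was called with the mean of its probe sets (0.40) and on 2 of its other 3, KNL1 with the mean of its probe sets (0.13), and both CENPA and CENPI with the vehicle arrays alone or without 1 array (CENPA without MCF10A vehicle C or MDA-MB-231 2DG D, CENPI without MCF10A 2DG C). Under 2DG these 5 genes were higher in MDA-MB-231, CENPA by 0.98, CENPI by 0.94, KNL1 by 2.52, ZWILCH by 0.95 and SKA1 by 2.71. NUF2 (4.01), BUB1 (3.90), SPC25 (3.67) and CENPU (3.63) differed most under 2DG, and NSL1 alone was lower in MDA-MB-231 (-1.16). The BUB1 value is that of its brightest probe set, and dimmer ones at 0.2375 and 0.12 were not called. By role the median difference under 2DG was 1.62 for the centromere, 2.25 for the outer kinetochore, 2.65 for the checkpoint, 2.78 for the passenger complex and 1.79 for the shugoshins.

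**Figure D4:**
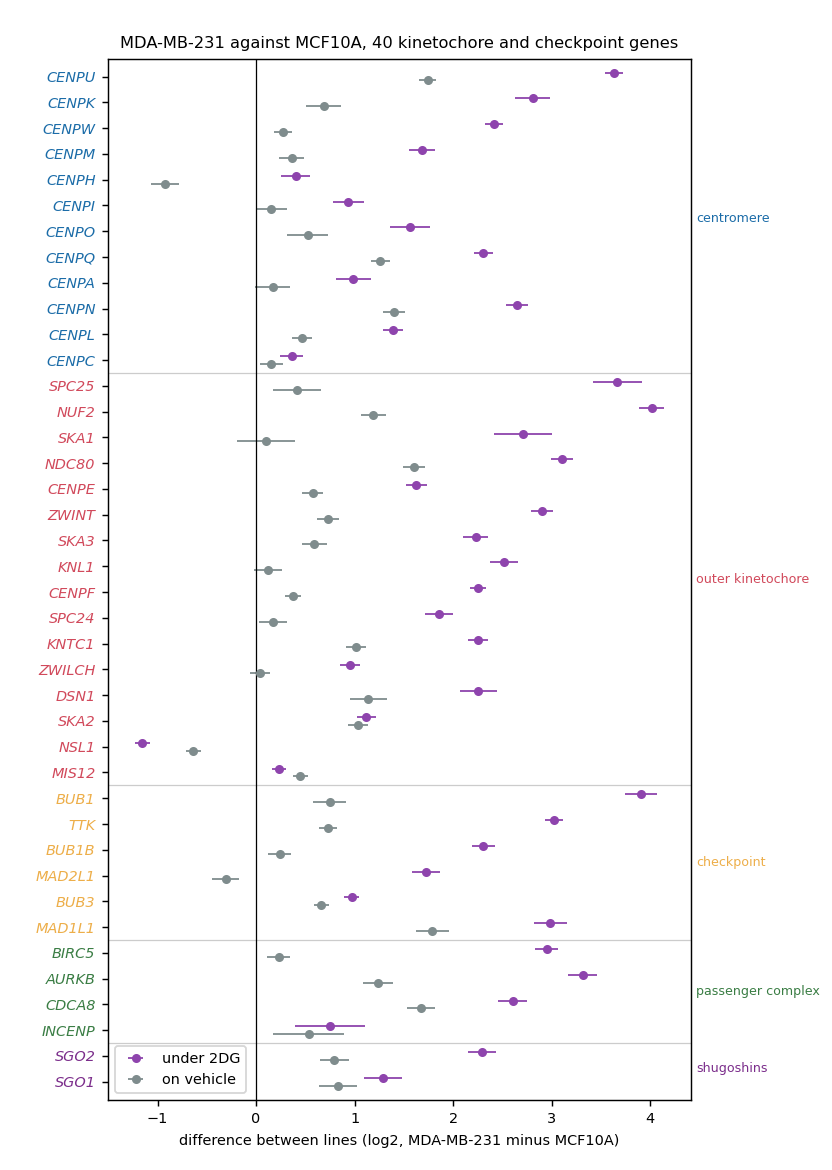
Difference between the lines (log2, MDA-MB-231 minus MCF10A, x axis) for the 40 genes (y axis, by role), under 2DG (purple, upper) and on vehicle (grey, lower), with 95% confidence intervals from limma, 4 arrays a group. The purple points have a median of 2.25 and the grey points one of 0.55, and NSL1 lies left of 0 in both.

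Other genes of the same pathways moved less uniformly. Of 48 further genes listed by pathway, 45 had a value. In MDA-MB-231 29 of them fell, 10 rose and 6 were not called, with a median change of -0.42, and in MCF10A 29 fell, 8 rose and 8 were not called, also with a median of -0.42. The share that rose was close to that of all genes in MDA-MB-231 (25.5%) and below it in MCF10A (29.0%). The share that fell was above that of all genes in both lines (25.4% in MDA-MB-231 and 25.2% in MCF10A). The largest falls in MDA-MB-231 were those of TRIP13, an ATPase that acts on MAD2 (-2.16, SE 0.0537), and HJURP, the chaperone that loads CENP-A (-1.65, SE 0.081). In MCF10A they were those of CDC20, the checkpoint's target (-4.02, SE 0.0506), and HJURP (-3.73). In MDA-MB-231 the rises were led by NDEL1, a dynein partner (0.85, SE 0.0315), and MAD2L1BP, or p31comet, which works with TRIP13 to silence the checkpoint (0.69, SE 0.0415). In MCF10A they were led by CLASP1, a microtubule-binding protein (1.10, SE 0.0434), and PPP2R5A, a subunit of the phosphatase PP2A (0.90, SE 0.0355). A mitotic and a replication group were set beside the list. All 12 mitotic kinesins fell in both lines, with medians of -1.55 in MDA-MB-231 and -3.38 in MCF10A. All 6 genes of the MCM helicase, which acts in DNA replication, also fell, with medians of -1.49 in MDA-MB-231 and -2.61 in MCF10A. Cell cycle phase was not measured in these data, and its part in the falls was not tested.

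For 18 of the 40 genes there were other probe sets, 38 in all, and most of them moved the same way. In MDA-MB-231 28 of the 38 fell, none rose and 2 had the opposite sign to the brightest one. In MCF10A 32 fell, none rose and 2 had the opposite sign. These calls were adjusted over all 41091 probe sets with 1 gene, and the share of those that fell is not given here. By the brightest probe set of each gene, 25.4% of all genes fell in MDA-MB-231 and 25.2% in MCF10A. BUB3 differed most among its probe sets: in MDA-MB-231 the other 5 changed by -0.06, -0.15, -0.01, 0.05 and -2.03, and in MCF10A by -0.72, 0.07, 0.08, -0.15 and -1.80, from the brightest to the dimmest. The direction of BUB3 is therefore open to the choice of probe set. For KNL1, the next brightest probe sets showed -0.06 and -0.03 in MDA-MB-231, neither of them called, and -3.59 and -2.34 in MCF10A. CENPU had other probe sets at -2.81 and -3.08 in MDA-MB-231 and at -2.18 and -3.76 in MCF10A. The difference of response of CENPU was 1.89 for its brightest probe set, 0.68 for another and -0.64 for the third, so its sign depended on the probe set. A second SKA2 probe set changed by -0.75 in MDA-MB-231 and -1.62 in MCF10A, a difference of 0.87 that was called (limma adjusted p = 6.17e-08).

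**Figure D5:**
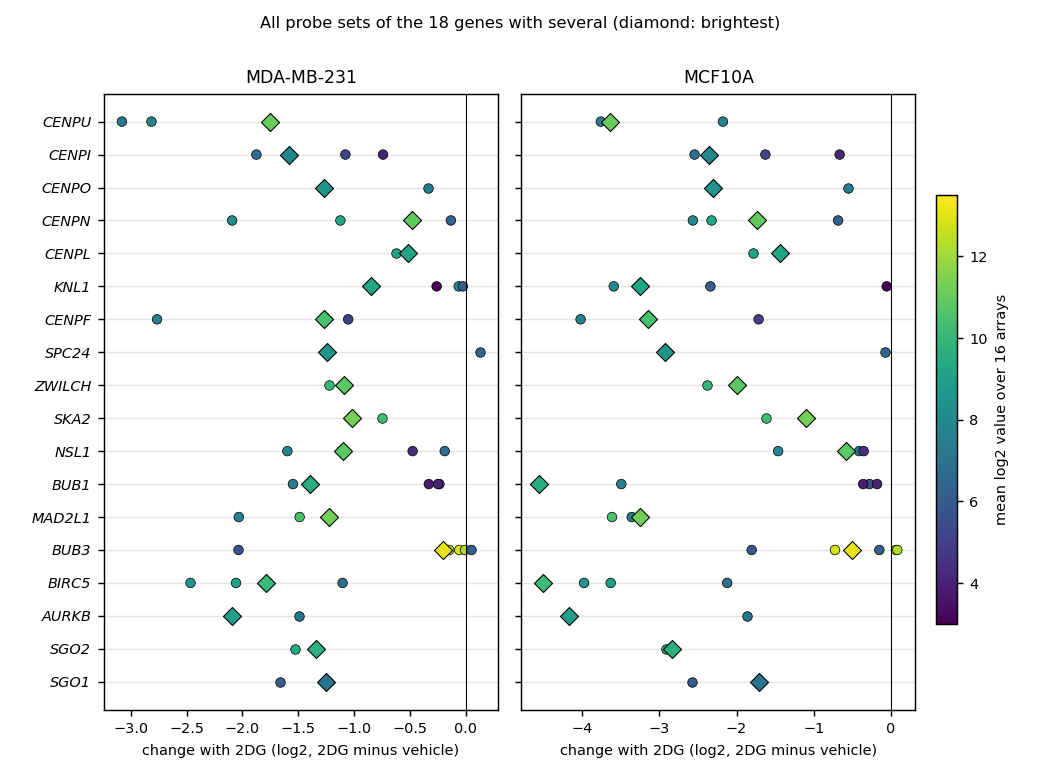
Change with 2DG (log2, 2DG minus vehicle, x axis) of every probe set of the 18 genes with several (y axis), in MDA-MB-231 (left) and MCF10A (right); diamonds are the brightest probe set, circles the others, and colour is the mean log2 value over 16 arrays. BUB3 and SPC24 have points on both sides of 0 in MDA-MB-231, and CENPU has circles left of its diamond there.

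Promoter sequences are shown because so many of the genes moved together. They come from RefSeq on GRCh38.p14, which held an entry for 32 of the 40 genes. The 250 bases before the start are given, 5' to 3' on the strand of the gene, for the gene with the largest fall in MCF10A in each of 4 roles and for MIS12, whose change was nearest 0 over both lines among the genes with an entry. In the passenger complex AURKB stands in, as BIRC5 has no entry in the table. Capitals mark the letters of 3 elements known from cell cycle promoters, searched on both strands: the cell cycle genes homology region (CHR), TTTGAA or TTCGAA; the CCAAT box, CCAAT; and the E2F site, TTTCCCGC, TTTCGCGC, TTTGCCGC or TTTGGCGC. The regions are chr4:184734097-184734346 on the minus strand for CENPU, chr2:168890431-168890680 on the minus strand for SPC25 and chr2:110678064-110678313 on the minus strand for BUB1. Those of AURKB and MIS12 are chr17:8210226-8210475 on the minus strand and chr17:5486124-5486373 on the plus strand.
CENPU: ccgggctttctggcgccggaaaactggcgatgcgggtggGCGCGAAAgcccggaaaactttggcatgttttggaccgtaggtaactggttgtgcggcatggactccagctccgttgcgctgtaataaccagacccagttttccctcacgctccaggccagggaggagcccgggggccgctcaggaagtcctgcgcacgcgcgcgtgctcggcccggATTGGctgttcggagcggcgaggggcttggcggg
SPC25: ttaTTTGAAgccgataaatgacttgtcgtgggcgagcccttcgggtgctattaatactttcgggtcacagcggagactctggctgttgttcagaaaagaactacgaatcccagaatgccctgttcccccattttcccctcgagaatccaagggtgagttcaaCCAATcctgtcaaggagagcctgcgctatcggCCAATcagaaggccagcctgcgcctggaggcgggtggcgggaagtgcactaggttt
BUB1: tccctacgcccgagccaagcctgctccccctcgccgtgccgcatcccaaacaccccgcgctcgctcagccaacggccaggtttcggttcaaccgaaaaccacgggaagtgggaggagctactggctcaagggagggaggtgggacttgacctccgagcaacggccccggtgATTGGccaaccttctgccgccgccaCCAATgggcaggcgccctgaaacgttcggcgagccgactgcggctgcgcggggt
AURKB: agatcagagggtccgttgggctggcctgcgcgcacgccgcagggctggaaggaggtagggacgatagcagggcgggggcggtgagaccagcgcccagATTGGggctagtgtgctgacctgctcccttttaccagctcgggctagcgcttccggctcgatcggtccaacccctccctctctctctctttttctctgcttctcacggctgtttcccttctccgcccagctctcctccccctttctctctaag
MIS12: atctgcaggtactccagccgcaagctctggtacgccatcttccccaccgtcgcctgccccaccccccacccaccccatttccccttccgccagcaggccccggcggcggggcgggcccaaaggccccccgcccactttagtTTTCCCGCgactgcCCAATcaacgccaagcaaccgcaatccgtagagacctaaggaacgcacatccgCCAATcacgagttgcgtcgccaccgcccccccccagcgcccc

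CENPU holds an E2F match and 1 CCAAT box, and MIS12 an E2F match and 2 CCAAT boxes. SPC25 holds 2 CCAAT boxes and a CHR match, BUB1 2 CCAAT boxes on opposite strands, and AURKB 1 CCAAT box. No CHR match was found in MIS12, which rose, nor in CENPU and AURKB, which fell. The part of these letters in the changes was not tested. Over the 32 genes, counting 250 bases before to 50 after the start, a CCAAT box was present in 21 (65.6%), against 35.7% of the 27305 genes in the table. A CHR match was present in 18 (56.2%), against 16.6% of all. An E2F match was present in 3 (9.38%), against 3.33% of all. In the 250 bases before the start alone the shares were 21.9% against 14.6% for CHR and 59.4% against 33.0% for CCAAT. By role, CHR letters were found in 5 of 9 centromere genes, 7 of 14 outer kinetochore genes, 3 of 4 checkpoint genes, 2 of 3 passenger genes and 1 of 2 shugoshins.

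Many of the CHR matches sat at the start site itself. A match beginning within 30 bases of the start was present in 13 of the 32 genes (40.6%), against 3.15% of all genes in the table, a window chosen after the positions were seen. The 7 matches of genes with values by array are printed with 11 bases on either side, where the table allows, and with the match in capitals. TTCAAA is TTTGAA on the other strand, and TTCGAA reads the same on both. Position 1 is the annotated start and -1 the base before it. The match begins at position 2 in BUB1 (chr2:110678046-110678073), 4 in CENPN (chr16:81007206-81007233), 17 in NUF2 (chr1:163321959-163321986) and -3 in SPC25 (chr2:168890417-168890444). It begins at -3 in SGO1 (chr3:20186193-20186220), -10 in INCENP (chr11:62123990-62124017) and -90 in CENPC (chr4:67545577-67545604).
BUB1: tgcgcggggtaTTCGAAtcggcggcggc
CENPN: caattggtggcTTTGAAggcgcggcgag
NUF2: gaggcggcaagTTTGAAaagtgatgacg
SPC25: agtgcactaggTTTGAAatcggaaagtt
SGO1: aggcggaaaatTTCGAAtgtggcggcgg
INCENP: gagccttcagtTTTGAAaatcatagttt
CENPC: gtgtctccgggTTCAAAcccaggcacag

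The median change of the 18 genes with CHR letters was -1.29 in MDA-MB-231 and -3.21 in MCF10A. That of the 14 without them was -1.16 in MDA-MB-231 and -2.32 in MCF10A, and both sets spanned wide ranges. Those with the letters ran from -2.39 to -0.48 in MDA-MB-231 and from -5.64 to -0.80 in MCF10A. Those without ran from -2.23 to 0.73 in MDA-MB-231 and from -4.17 to 0.335 in MCF10A. These are descriptions of the letters in fixed windows, and binding of any factor was not measured. In CDCA8 the last base of TTTGAA is also the first of a CCAAT box on the other strand, ATTGG.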

How the data were processed

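RNA from 16 cultures was measured on 1-colour Affymetrix U133 Plus 2.0 arrays, 1 per sample. The deposited log2 values were made by the authors with RMA, per the submitters' processing notes; the sources used here give neither its version, nor a genome build, nor whether all arrays were normalized together. RMA values carry no detection call. The table held 54675 probe sets, of which 41091 were annotated with 1 gene, 1801 with several (left out) and 11777 were not listed (not used). Symbols were looked up by gene number in RefSeq GRCh38.p14, which found 41037 and changed none.

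The brightest probe set of each of the 19775 genes entered a linear model of 4 group means with moderated variances (lmFit, eBayes; limma 3.58.1, R 4.3.3; 12 residual degrees of freedom), with two-sided tests and Benjamini-Hochberg adjustment over all genes at 0.05. Errors are standard errors of the fit. The series' text calls the replicates independent, and their number limits the precision. The procedure was tested on simulated data. The genes, roles and lists were chosen with earlier results of these data known. Values by array are given for the genes with the largest change, or the change nearest 0, in a role and line, those that rose, and those with the 3 largest and 3 smallest or opposite differences of response. Of the further pathway genes, the 2 largest called changes each way per line are named. Alternatives were a replicate block, other probe set choices, a filter on dim genes, other variance settings, array centring, the actin ratio as a covariate and leaving out each array. Promoters were the first RefSeq entry of a gene.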

Additional observations from a re-analysis of the deposited data

Results flagged for a closer look

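Among the sets of 4 arrays tested for a sample far from the other 3, 10 of 160 for the kinetochore and checkpoint genes and both control ratios in 1 group were marked; chance marks about 1 in 20. In the MDA-MB-231 vehicle group, replicate B stood apart for BIRC5 (11.9, the others 11.79 to 11.80), CENPF (11.73, the others 11.78 to 11.79) and MAD1L1 (9.66, the others 9.33 to 9.36). The same array stood apart in the actin control ratio (1.09) and the GAPDH control ratio (0.40). In the MCF10A 2DG group, replicate C stood apart for INCENP (7.09), NSL1 (11.05) and SKA1 (4.38, the others 5.12 to 5.25), and replicate B for ZWINT (9.29). In the MCF10A vehicle group it was replicate A for CENPE (10.37), C for CENPF (11.31) and D for DSN1 (9.47). Without its replicate C the change of SKA1 in MCF10A was -3.72.

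The 2DG response differed between the lines by limma's test of the difference (MDA-MB-231 minus MCF10A, adjusted p under 0.05 over all genes) for 38 genes. In the centromere the differences were 0.82 for CENPA, 0.21 for CENPC, 1.32 for CENPH, 0.78 for CENPI, 2.12 for CENPK, 0.92 for CENPL, 1.32 for CENPM, 1.25 for CENPN, 1.04 for CENPO, 1.05 for CENPQ, 1.89 for CENPU and 2.14 for CENPW. In the NDC80 complex they were 1.5 for NDC80, 2.83 for NUF2, 1.68 for SPC24 and 3.25 for SPC25. Elsewhere in the outer kinetochore they were 2.40 for KNL1, 1.11 for DSN1, -0.52 for NSL1, -0.22 for MIS12, 2.17 for ZWINT, 0.91 for ZWILCH, 1.24 for KNTC1, 2.61 for SKA1, 1.64 for SKA3, 1.05 for CENPE and 1.88 for CENPF. In the checkpoint they were 3.16 for BUB1, 2.07 for BUB1B, 0.31 for BUB3, 1.2 for MAD1L1, 2.03 for MAD2L1 and 2.30 for TTK. They were 2.08 for AURKB, 2.72 for BIRC5, 0.93 for CDCA8, 0.46 for SGO1 and 1.5 for SGO2.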

How the results depend on the processing

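Over 24 alternative settings (23 for the difference of response, which cannot be fitted from the arrays of 1 line), the call and direction of the 40 genes held for 38 in MDA-MB-231 (BUB3 and MIS12 changed), 39 in MCF10A (BUB3), 35 for the difference (BUB3, CENPC, INCENP, NSL1 and SKA2), 35 between the lines on vehicle (CENPA, CENPC, CENPI, KNL1 and SPC24) and 40 under 2DG. Without probe sets marked as shared between transcripts, 33 genes were left, and the counts above cover that setting for those 33 alone. There 1 rose in MDA-MB-231 and 0 in MCF10A, and the median change was -2.93 in MCF10A. The median difference was 1.2 with 0 negative calls, and the median between the lines under 2DG was 1.93. With the mean of all probe sets the median was -2.47 in MCF10A, the difference 1.16 with 1 negative call, and 2.02 between the lines under 2DG. With the actin ratio as a covariate 1 gene rose in MDA-MB-231 and the median there was -1.28. Leaving out single arrays gave medians of -1.27 to -1.23 in MDA-MB-231, -2.94 to -2.84 in MCF10A, 1.27 to 1.38 for the difference and 0.54 to 0.60 between the lines on vehicle. The cause of these shifts was not tested.

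The counts above leave out fits of a single other probe set. Besides BUB3, the 2DG change lost its call there in MDA-MB-231 for CENPN (-0.13), KNL1 (-0.0625 and -0.025), NSL1 (-0.1875) and BUB1 (-0.235 and -0.2475). In MCF10A this held for KNL1 (-0.055), SPC24 (-0.0775) and BUB1 (-0.18). Under 2DG the difference between the lines lost its call for CENPI (0.1625), CENPN (0.265) and BUB1 (0.2375 and 0.12). On vehicle, calls were lost for NSL1 (-0.0925), BUB1 (0.195 and 0.1875) and BIRC5 (0.185). For the difference calls were lost for CENPO (0.22), SPC24 (0.205), NSL1 (-0.135 and -0.1225), BUB1 (0.0425 and 0.03), BUB3 (0.2025) and AURKB (0.37). Signs turned only with other probe sets. For the 2DG change these were BUB3 (0.0525 in MDA-MB-231, also without shared probe sets, and 0.065 and 0.0825 in MCF10A) and SPC24 (0.13 in MDA-MB-231). For the difference they were CENPI (-0.075), CENPU (-0.64), KNL1 (-0.21), NSL1 (0.23), BUB1 (-0.0675) and BUB3 (-0.21, -0.0875 and -0.23). Between the lines they were CENPN (-0.29) and SPC24 (-0.0225) on vehicle and KNL1 (-0.0575) under 2DG.

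Arrays of equal letter shared little of their deviations: over 16 such pairs the correlation was -0.099 to 0.088. Pairs of unequal letters were not compared, so this cannot decide whether cultures were paired by letter. With a replicate block 38 genes fell in MDA-MB-231, 39 fell in MCF10A, 36 differences were positive, and 31 genes rather than 32 were higher in MDA-MB-231 on vehicle, SPC24 (0.17) losing its call. Depth is not defined for arrays; values near the bottom of the scale, such as those of SPC25 and SKA1 in MCF10A with 2DG, may understate a fall.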
